A study of Homo sapiens with 60 samples.

Results

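The comparison described here sets 3 libraries from cells given 3 nM dimerizer for 8 h against 3 untreated libraries taken at 0 h, 6 of the 60 libraries of the series, over all genes expressed in it. The members were chosen by their titles: the 3 replicates at 3 nM and 8 h, and the 3 replicates of the second untreated set (untreated set 2 below), which was sequenced to the same depth. All 60 libraries came from U2OS, a human osteosarcoma line labelled WT, carrying a stable construct called Dmr-PERK. This construct joins the kinase domain of mouse PERK to the DmrB dimerization domain, and the dimerizer AP20187 brings 2 copies together. Cells were seeded in 24-well plates the day before, and the wider series gave 3 doses, 0.01, about 0.2 or 3 nM, each at 6 times from 1 h to 24 h, with 3 replicates. The middle dose is 0.2 nM as rounded in the series' own text. Per the labels, 3 nM gave the strongest loss of protein synthesis. Both untreated sets were collected at 0 h, so time in culture and treatment cannot be told apart in any comparison with them.

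PERK is one of the kinases that phosphorylate the alpha subunit of the translation initiation factor eIF2, usually when unfolded proteins collect in the endoplasmic reticulum (ER). Phosphorylated eIF2 lowers general translation while letting a few mRNAs, ATF4 among them, be translated better, and the program of transcription that follows is called the integrated stress response (ISR). ATF4 pairs with other factors of the bZIP family at C/EBP-ATF response elements of genes for amino acid supply, tRNA charging and feedback on eIF2 itself. Lower translation also depletes short-lived proteins, including the NF-kB inhibitor IkB-alpha and the ER protein INSIG1. Here the construct replaces the ER signal, so that the kinase can be started without unfolded protein.

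RNA was sequenced as stranded libraries, and the deposited table holds estimated counts per gene. Totals were 22228414 to 28436165 counts in the 3 libraries at 3 nM 8 h and 20713699 to 26748176 in untreated set 2, against 5598612 to 10367375 in the 39 shallower libraries of the series. Levels below are CPM, the counts of a gene scaled to a common library size by TMM normalisation, and differences are log2 fold changes with standard errors (SE) from edgeR's quasi-likelihood test. A gene was called at a Benjamini-Hochberg adjusted p below 0.05. The median coefficient of variation between replicates was 3.23% at 3 nM 8 h and 2.92% in untreated set 2 for genes above 20 CPM. No label says whether replicates were separate cultures, so the p-values measure only the spread between these libraries. Untreated set 1, one of the shallower sets, differed from set 2 at 5215 genes (28.9% of those tested), among them FOS at 650 against 85.0 CPM. Values against set 1 are given beside many of the results that depended on the choice of set.

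After 8 h the cells held more mRNA for amino acid supply, tRNA charging, ribosome assembly and NF-kB signalling. They held less for immediate early and cholesterol synthesis genes, and for the 8 histone genes tested, which were at low levels. Of 18040 genes tested, 12771 (70.8%) were called at 3 nM 8 h against untreated set 2, 6485 higher (35.9%) and 6286 lower (34.8%). The median log2 fold change over all genes was -0.006. A change of at least 2-fold was called at 1348 genes higher (7.47%) and 1834 lower (10.2%), and the plot of all genes shows them at every level of expression. Against untreated set 1 the calls numbered 12315 (68.3%), with 1951 at least 2-fold higher (10.8%) and 1762 at least 2-fold lower (9.77%). The 3 treated libraries lay all above or all below the 3 untreated ones at 13328 genes (73.9%). These libraries are bulk samples, in which fewer cells of a kind and less RNA per cell cannot be told apart.

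**Figure D1:**
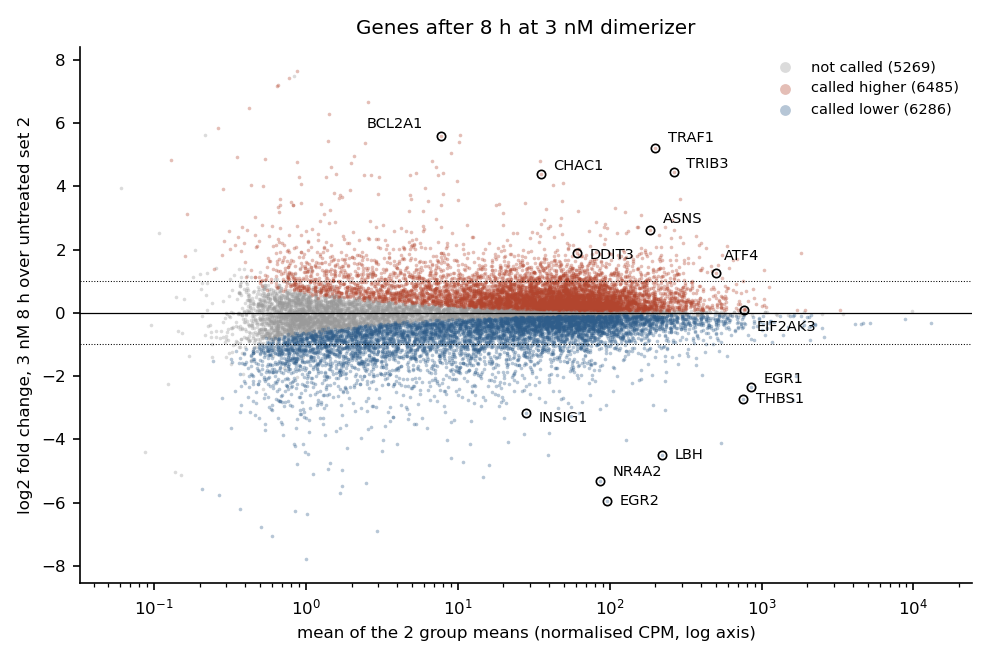
Log2 fold change of each tested gene at 3 nM 8 h over untreated set 2 (vertical axis) against the mean of the 2 group means in normalised CPM (horizontal, log axis), with called genes in colour and dotted lines at 2-fold. The cloud is centred near 0, with TRAF1, TRIB3, CHAC1 and BCL2A1 among the named genes at the top and EGR2, NR4A2 and LBH at the bottom.

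The message of the kinase's own human gene, EIF2AK3 (chromosome 2, 88556741 to 88627576 on GRCh38), changed little. Its level was 736, 739 and 749 CPM in untreated set 2 and 761, 787 and 830 CPM at 3 nM 8 h. The 3 treated libraries lay just above the untreated ones, with a log2 fold change of 0.10 (SE 0.0314, adjusted p = 5.38e-03). Whether reads of the mouse kinase domain were counted in this gene cannot be told apart from the table, so the gene does not check the construct. The other eIF2-alpha kinases fell slightly: EIF2AK4 by 0.45, EIF2AK2 by 0.34 and EIF2AK1 by 0.16 on the log2 scale, the call for EIF2AK2 being lost against set 1 (-0.11, adjusted p = 0.056).

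ATF4 mRNA was higher after 8 h in every library. ATF4 (chromosome 22, 39519695 to 39522685) stood at 296, 299 and 284 CPM in untreated set 2 and at 659, 728 and 725 CPM at 3 nM 8 h, a log2 fold change of 1.27 (SE 0.0329, adjusted p = 3.58e-39). The groups did not overlap. DDIT3, which encodes the bZIP factor CHOP, had 24.7, 26.1 and 27.2 CPM untreated and 87.6, 100 and 101 CPM treated (log2 fold change 1.89, or 1.29 against set 1). CEBPB, a partner of ATF4, rose from a mean of 66.0 ± 3.31 to 183 ± 3.77 CPM (SD, n = 3 each). CEBPG, a further partner, rose by 2.51 and NFIL3, a bZIP repressor, by 2.49.

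ATF3 went the other way. This bZIP repressor is usually induced by ATF4, and it stood at 352, 351 and 356 CPM in untreated set 2 but at 184, 177 and 199 CPM at 3 nM 8 h. All 3 treated libraries were below all 3 untreated ones, by 0.92 on the log2 scale (SE 0.0668, adjusted p = 1.40e-18) and by 1.91 against set 1. The same dose held 760 CPM at 1 h, 857 at 2 h and 349 at 4 h, so the 8 h libraries came after a peak. Of the 17 tested genes in the list of bZIP stress factors, 11 were called higher and 6 lower, with a median of 0.91. Those lower were ATF3, CEBPD (-0.37, or -1.14 against set 1), DBP (a clock output factor, -2.14), ATF6B, CREB3L1 and CREB3L2 (-1.05).

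The opposite movement of ATF3 and other ATF4 targets can be set beside their promoters. The following stretches of 60 bases, from RefSeq's promoter table on GRCh38.p14, run 5′ to 3′ on the gene's strand and are shown because each holds the C/EBP-ATF response element searched here (TGATGNAA on either strand). Capitals mark the match.
ATF3: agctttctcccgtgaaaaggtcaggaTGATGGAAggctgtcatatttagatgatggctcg
CHAC1: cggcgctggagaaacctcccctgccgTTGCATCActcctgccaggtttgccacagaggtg
ASNS: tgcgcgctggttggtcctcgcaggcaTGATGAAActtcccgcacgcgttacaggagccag
FGF21: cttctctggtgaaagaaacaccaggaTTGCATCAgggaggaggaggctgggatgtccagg
The ATF3 stretch is chr1:212565190-212565249 on the plus strand and the CHAC1 stretch chr15:40953236-40953295 on the plus strand, where the match reads on the reverse strand. The ASNS stretch is chr7:97872443-97872502 on the minus strand, and the FGF21 stretch chr19:48755444-48755503 on the plus strand, again with a reverse match. All 4 lie upstream of the RefSeq start. At 8 h CHAC1, ASNS and FGF21 had risen and ATF3 had fallen, so a match in this window did not go with 1 direction of change.

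ASNS, which makes asparagine, stood at 52.4, 50.6 and 51.0 CPM in untreated set 2 and at 313, 318 and 324 CPM at 3 nM 8 h. The log2 fold change was 2.63 (SE 0.051, adjusted p = 2.10e-45), and the groups were far apart. CHAC1, an enzyme that breaks down glutathione, rose from 3.67, 2.77 and 3.07 CPM to 66.1, 65.5 and 69.5 CPM (4.39, or 3.55 against set 1). FGF21, a secreted metabolic hormone, was near the limit of detection untreated, at 0.112, 0 and 0.224 CPM, and reached 4.00, 3.94 and 4.26 CPM.

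Feedback on the pathway was mixed. TRIB3, a pseudokinase that restrains ATF4, was among the genes with the largest rise, from 24.3, 22.9 and 22.8 CPM to 494, 511 and 516 CPM (log2 fold change 4.44, SE 0.0666, adjusted p = 1.03e-50). PPP1R15A, the stress-induced subunit of the eIF2-alpha phosphatase, had 83.4, 92.0 and 89.9 CPM untreated and 186, 202 and 199 CPM treated (1.15). Its constitutive counterpart PPP1R15B fell by 0.15. The mTOR inhibitors DDIT4 and SESN2 rose by 3.60 and 3.08. Of 16 tested brakes and feedback genes 10 were called higher and 4 lower, with a median of 0.92. The 4 lower ones included TRIB1 (-1.98) and TRIB2 (-3.27), pseudokinases related to TRIB3, with GADD45B the other beside PPP1R15B.

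**Figure D2:**
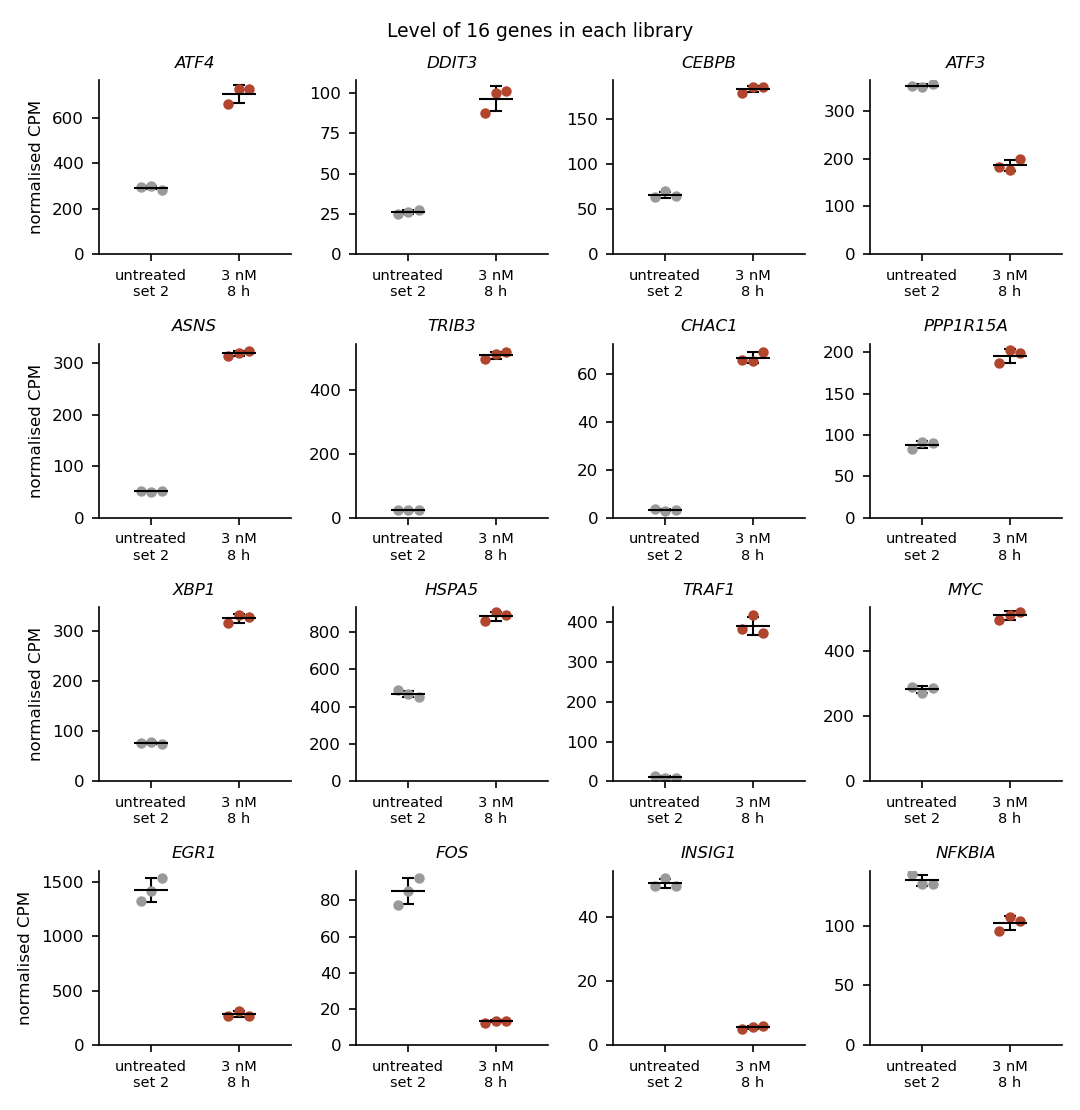
Normalised CPM of 16 genes in each library of untreated set 2 (grey) and 3 nM 8 h (red), with the mean and SD of the 3 libraries as the black bar. The groups do not overlap in any panel, with ATF3, EGR1, FOS, INSIG1 and NFKBIA lower after treatment and the other genes higher.

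Genes that supply amino acids rose as a group. In the list for amino acid synthesis, 19 of 22 tested members were called higher and 3 lower, with a median of 1.39. The largest rises were in CTH, which makes cysteine (3.52), ALDH1L2, a mitochondrial folate enzyme (3.21), and PSPH, the last step to serine (2.74). CTH went from a mean of 7.83 ± 1.21 to 89.1 ± 2.49 CPM (SD, n = 3 each), and ALDH1L2 had 11.9, 10.8 and 13.4 CPM untreated and 113, 114 and 110 CPM treated. Those that fell included GLUL, glutamine synthetase (-1.66, or -0.85 against set 1), and SHMT1, the cytosolic serine hydroxymethyltransferase (-0.60).

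Transporters of amino acids divided more evenly, with 10 of 15 higher, 5 lower and a median of 1.68. The cystine carrier SLC7A11 rose from 26.8, 23.3 and 24.7 CPM to 237, 234 and 209 CPM (3.18), and the neutral amino acid carriers SLC1A5 and SLC1A4 rose by 2.39 and 2.18. SLC38A2, a glutamine carrier known as a target of amino acid starvation, did not follow them. It had 639, 681 and 667 CPM untreated and 420, 443 and 420 CPM at 3 nM 8 h, a fall of 0.63 on the log2 scale with no overlap. SLC38A3, SLC1A1, SLC36A1 and SLC38A9 also fell, the call for SLC36A1 (-0.18) being lost against set 1 (-0.07, adjusted p = 0.35).

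Charging enzymes of the cytosol rose nearly throughout. Of 20 cytosolic tRNA synthetases 19 were called higher, with a median of 1.36, led by WARS for tryptophan (2.69), YARS for tyrosine (2.22) and GARS for glycine (2.11). WARS stood at 26.1, 26.9 and 24.6 CPM untreated and at 162, 167 and 169 CPM treated. The exception was QARS, the glutaminyl enzyme, which fell from 220, 220 and 218 CPM to 133, 139 and 142 CPM (-0.67, SE 0.0339, adjusted p = 2.10e-25). In the list of 17 mitochondrial synthetases 9 were higher and 3 lower, with a median of 0.22. MARS2 (1.23) and PARS2 (0.91) were the highest of these. AARS2 fell by 0.18, and IARS2 was lower by 0.08 against set 2 but had no difference against set 1 (0.00, adjusted p = 0.92).

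**Figure D3:**
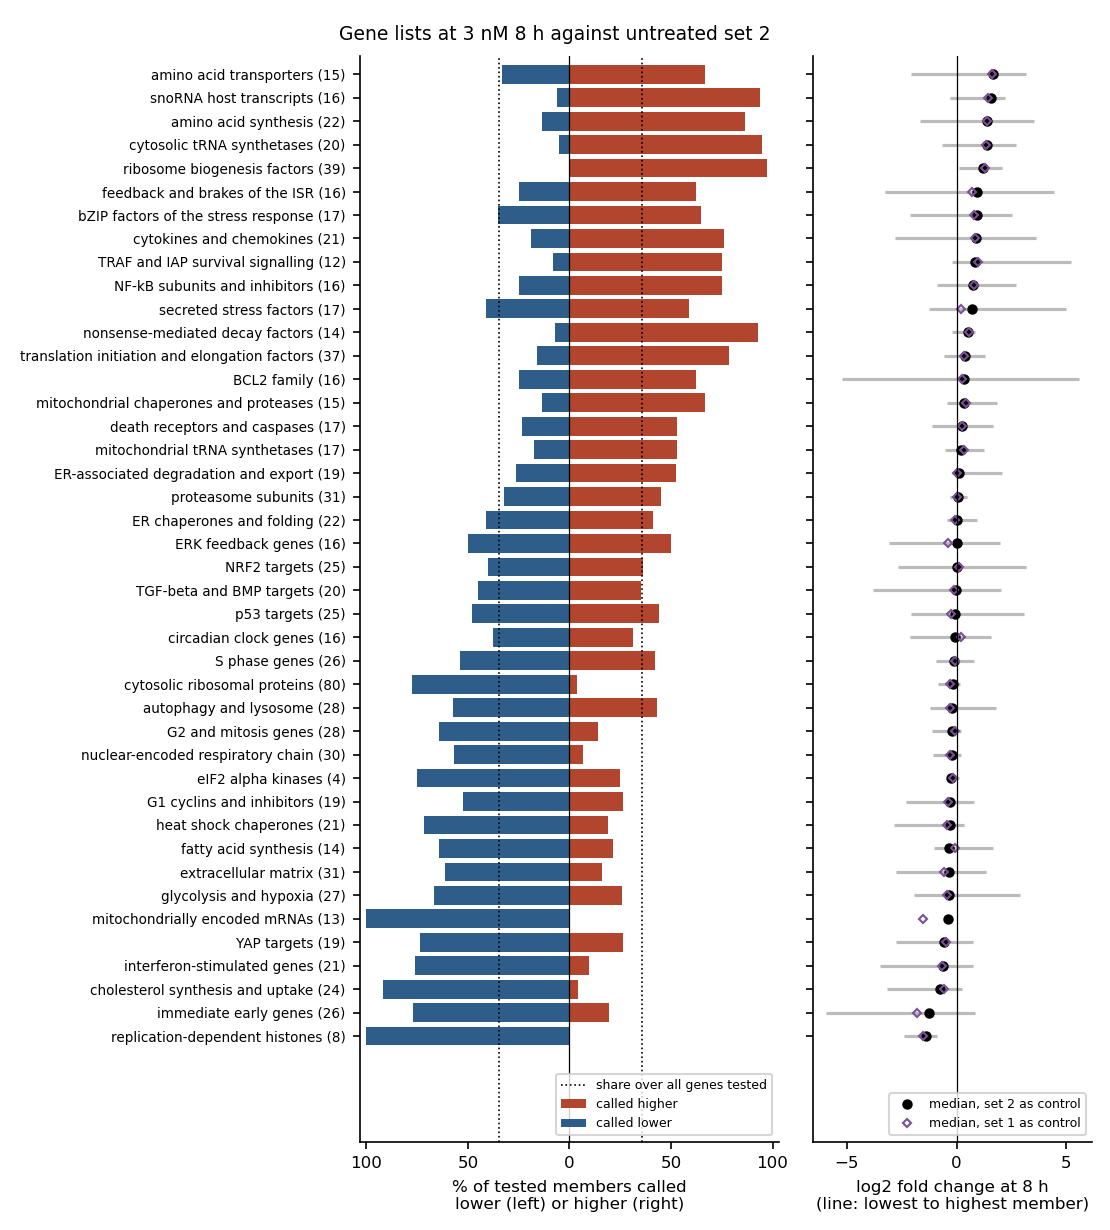
For each gene list with its number of tested members, the left panel gives the percentage called higher (red) or lower (blue) at 3 nM 8 h against untreated set 2, with dotted lines at the shares over all genes. The right panel gives the median log2 fold change with set 2 (filled circle) or set 1 (open diamond) as control and the range of members (grey line), from amino acid transporters at the top to histones at the bottom.

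Genes that build ribosomes and genes that are part of them differed. Of 39 ribosome biogenesis factors 38 were called higher and none lower by edgeR, with a median of 1.21, and RRP12, WDR43 and RRP9, which process or assemble ribosomal RNA, rose by 2.06, 1.98 and 1.93. RRP12 had 66.0, 59.7 and 61.5 CPM untreated and 260, 263 and 259 CPM treated. Cytosolic ribosomal proteins moved little and mostly down: 62 of 80 were lower and 3 higher, with a median of -0.17. RPL7A fell most, from a mean of 1097 ± 11.1 to 616 ± 35.0 CPM. The 3 higher ones, RPL8 (0.08), RPL10A (0.16) and RACK1 (0.11), were not higher against untreated set 1, where the differences were -0.03, -0.01 and -0.00.

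Host transcripts of small nucleolar RNAs rose with the biogenesis factors, 15 of 16 with a median of 1.57. SNHG17 went up by 2.20, SNHG5 by 1.92 and SNHG8 by 1.82, and SNHG19 alone fell (-0.28). Factors of nonsense-mediated decay, the pathway that also degrades many such host transcripts, were higher in 13 of 14 cases with a median of 0.53. SMG1, the kinase of that pathway, rose by 0.84, or 1.31 against set 1, and SMG8 fell (-0.23). Among translation initiation and elongation factors 29 of 37 were higher and 6 lower, with a median of 0.36. EIF2S2, the beta subunit of eIF2, rose by 1.27 and EIF2B3, a subunit of its exchange factor, by 1.16, whereas EEF2K, which inhibits elongation, fell by 0.58 and EIF4B by 0.37.

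Genes tied to the unfolded protein response did not share a direction. XBP1, the transcription factor spliced by IRE1, rose from 77.6, 79.3 and 74.7 CPM to 315, 333 and 329 CPM (2.08, SE 0.0365, adjusted p = 1.53e-47), and ERN1, which encodes IRE1, rose by 1.29. HSPA5, the ER chaperone BiP, had 487, 466 and 454 CPM untreated and 858, 907 and 891 CPM treated (0.92). Other chaperones of the ER divided evenly, and over the list of 22 there were 9 higher and 9 lower with a median of 0.02. Against set 1 the counts were 6 higher and 11 lower, with a median of -0.08. HYOU1 (0.58) and HSPA13 (0.52) rose with HSPA5, whereas PDIA4 (-0.45) and SDF2L1 (-0.43) fell. CALR, a major lectin chaperone, fell by 0.25, or 0.65 against set 1. In ER-associated degradation and export 10 of 19 were higher and 5 lower (median 0.11), against 7 and 7 with set 1 as control and 7 and 0 by limma on log2(TPM + 1). The list included HERPUD1, a degradation factor known to follow ER stress, at 1.03.

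Chaperones of other compartments parted from each other. Of 21 cytosolic heat shock chaperones 15 were lower and 4 higher, with a median of -0.32. HSPA1A fell from 93.5, 92.2 and 95.7 CPM to 12.1, 12.5 and 14.5 CPM and HSPA1B from 68.3, 63.7 and 64.7 CPM to 14.9, 14.9 and 13.6 CPM (-2.19, or -2.80 against set 1). These 2 genes are near-identical copies, so that the division of reads between them is uncertain. The mitochondrial list had 10 of 15 higher and 2 lower (median 0.32), with DNAJA3 (1.85), HSPA9 (1.43) and the protease LONP1 (1.38) highest. HSPE1 and OMA1 fell by 0.44 and 0.45.

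Genes of NF-kB signalling rose in most cases. Of 16 tested subunits and inhibitors 12 were higher and 4 lower, with a median of 0.73. RELB had 25.3, 22.9 and 24.3 CPM untreated and 154, 163 and 163 CPM treated (2.72), and NFKB1 had 66.2, 64.6 and 63.9 CPM against 348, 359 and 362 CPM (2.46). The inhibitors fell into both directions. NFKBIB rose by 1.67, but NFKBIA, which encodes IkB-alpha and is itself a classical target, fell from 144, 135 and 135 CPM to 95.7, 107 and 104 CPM (-0.43, SE 0.046, adjusted p = 1.81e-12). NFKBIZ (-0.89, or -1.55 against set 1) and TNFAIP3, the deubiquitinase A20 (-0.69), fell too. REL, a further subunit, was called lower against set 2 (-0.19) but higher against set 1 (0.95, adjusted p = 1.8e-10), so its direction rested on the control.

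TRAF1, an adaptor of TNF receptors, had the largest rise of its list. It went from 13.5, 9.42 and 8.46 CPM to 381, 417 and 373 CPM, a log2 fold change of 5.21 (SE 0.103, adjusted p = 4.75e-45) and of 5.98 against set 1. BIRC3, the inhibitor of apoptosis that binds it, rose by 3.33, or 4.35 against set 1, and TRAF3 by 1.82. In this list 9 of 12 were higher and TRAF6 alone was lower (-0.19), a call not made against set 1 (-0.12, adjusted p = 0.22). Among 21 tested cytokines and chemokines 16 were higher and 4 lower, with a median of 0.88. TSLP, an epithelial cytokine, rose by 3.60 (4.27 against set 1) and IL1A by 3.52 from about 1 CPM or less, and the neutrophil chemokine CXCL8 went from 76.3, 55.8 and 52.0 CPM to 396, 416 and 402 CPM (2.72). CXCL14 fell from a mean of 65.7 ± 5.55 to 9.23 ± 0.635 CPM (SD, n = 3 each), and CX3CL1, CCL26 and IL18 fell as well. A further 9 listed chemokines and cytokines, CXCL1, CXCL2, CXCL10 and IL1B among them, did not pass the low-count filter.

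The BCL2 family had the widest range of log2 fold changes among the lists. BCL2A1, a pro-survival member known as an NF-kB target, rose from 0.487, 0.191 and 0.224 CPM to 15.9, 16.6 and 13.3 CPM (5.58). BMF, a pro-death member that senses cytoskeletal stress, fell from 25.4, 29.9 and 30.2 CPM to 0.818, 0.803 and 0.692 CPM (-5.20, SE 0.165, adjusted p = 6.48e-35). BCL2L11, encoding BIM, fell by 1.52 and MCL1 by 0.33, and BAD also fell, whereas PMAIP1, encoding NOXA, rose by 0.91 and BCL2L2 by 0.87. Over the family 10 of 16 were higher and 4 lower (median 0.34), and 8 and 7 against set 1 (median 0.23). TNFRSF10B, the death receptor DR5 known as a target of CHOP, had 109, 102 and 102 CPM untreated and 321, 334 and 319 CPM treated (1.64). Among death receptors and caspases 9 of 17 were higher and 4 lower, the latter being CASP2, CASP6, CASP9 and CASP10, with CASP9 not called against set 1 (-0.13, adjusted p = 0.18).

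Secreted stress factors other than cytokines divided 10 higher to 7 lower of 17, with a median of 0.71, or 0.19 against set 1. FGF21, STC2 and INHBE rose by 4.97, 4.31 and 3.41 (3.82 and 3.61 against set 1 for the first 2), all from 3.49 CPM or less per library. GDF15, another hormone tied to the ISR, had 36.0, 33.6 and 35.7 CPM in untreated set 2 and 52.9, 62.9 and 56.2 CPM at 3 nM 8 h (0.71). The mean in set 1 was 54.2 CPM, and against it the difference was 0.08 (adjusted p = 0.36), so the call for GDF15 rested on the choice of control.

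Immediate early genes, which respond to growth factors within minutes, were mostly below untreated by 8 h. Of 26 tested 20 were lower and 5 higher, with a median of -1.25 (-1.82 against set 1). EGR1 had 1323, 1413 and 1535 CPM untreated and 264, 312 and 268 CPM treated (-2.34, or -3.11 against set 1). EGR2 fell from 184, 194 and 191 CPM to 2.54, 3.21 and 3.31 CPM (-5.96), and NR4A2 from 169, 173 and 164 CPM to 4.36, 4.06 and 4.37 CPM (-5.30, or -5.99 against set 1). FOS went from 77.6, 85.4 and 92.1 CPM to 12.4, 13.5 and 13.4 CPM (-2.70), and by -5.63 against set 1, where it stood higher. The 5 genes that were higher were MYC, FOSL1, FOSL2 (0.24), KLF2 and KLF10 (0.14, or 0.71 against set 1). KLF2 turned with the control, from 0.13 against set 2 to -1.41 against set 1 (adjusted p = 6.4e-28), and limma on log2(TPM + 1) called 2 of the 26 higher. MYC had 291, 271 and 286 CPM untreated and 497, 511 and 522 CPM treated (0.85), and the difference from set 1 was 0.25.

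Genes that feed back on the ERK pathway did not share a direction, with 8 of 16 higher and 8 lower. ETV5 rose by 1.98, ERRFI1, an inhibitor of the EGF receptor, by 1.34 and ETV4 by 0.95. DUSP2, a nuclear phosphatase of ERK, fell from a mean of 411 ± 17.8 to 49.3 ± 2.14 CPM, and SPRY2 and ETV1 fell by 2.12 and 2.05. Targets of YAP, the cofactor that answers to cell tension, were lower in 14 of 19 cases (median -0.56). CTGF, a secreted matrix-associated protein, fell from 2775, 2841 and 2802 CPM to 404, 426 and 404 CPM (-2.77). In the TGF-beta and BMP list 7 of 20 were higher and 9 lower, and 4 and 11 against set 1. BMP4 fell by 3.79 and BMP2, a ligand of the same receptors, rose by 2.03. SMAD6 and ID1, targets of BMP signalling, fell by 2.24 and 1.63, but ID1 by only 0.42 against set 1.

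Matrix genes were mostly lower, 19 of 31 with 5 higher and a median of -0.35, and 25 and 3 against set 1. THBS1, a matrix glycoprotein, fell from 1345, 1313 and 1297 CPM to 202, 201 and 195 CPM (-2.73). COL1A1, the main bone collagen, fell from a mean of 1142 ± 16.3 to 631 ± 13.4 CPM (-0.86, or -1.54 against set 1). TNC rose by 1.34 and COL6A3 by 1.05 (0.53 against set 1), with COL12A1 also higher. COL4A1 was 0.21 higher against set 2 and -0.20 lower against set 1, so its direction rested on the control. Interferon-stimulated genes were mostly lower, 16 of 21 with 2 higher and a median of -0.63, and 13 and 3 against set 1. Their sum was 513 to 521 CPM in untreated set 2 and 432 to 443 CPM at 3 nM 8 h. IFIT1 fell by 3.50, OAS1 by 1.83 and IFIT2 by 2.09, each at 10.7 CPM or less in every untreated library of set 2. IRF1 (0.76), which acts upstream of them, was 1 of the 2 called higher.

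Lipid synthesis fell. Of 24 genes for cholesterol synthesis and uptake 22 were called lower and 1 higher, with a median of -0.76. INSIG1, which holds the sterol regulator SREBP in the ER, went from 49.9, 52.2 and 49.8 CPM to 5.00, 5.66 and 6.04 CPM (-3.17, SE 0.0754, adjusted p = 4.00e-41). IDI1, an isomerase of the pathway, fell by 1.74. TM7SF2, a sterol reductase, was higher by 0.26, a call not made against set 1 (0.12, adjusted p = 0.47). Among 14 fatty acid genes 9 were lower and 3 higher (median -0.35, and -0.09 against set 1). SCD and ACSS2 fell by 0.96 and 0.82, while MID1IP1, an activator of acetyl-CoA carboxylase, rose by 1.65.

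The mRNAs for glucose metabolism were lower on balance but included 1 of the strongest rises among enzymes. HK2, the inducible hexokinase, rose from 20.8, 19.5 and 19.0 CPM to 143, 145 and 144 CPM (2.86), and PDK1, which holds pyruvate back from mitochondria, by 1.38. Over 27 genes of glycolysis and hypoxia 18 were lower and 7 higher (median -0.36), among them the oxygen sensor EGLN3 (-1.92), PFKFB4 (-1.40) and the glucose carrier SLC2A3 (-1.18). TXNIP, which responds to glucose, rose by 0.97. NRF2 targets divided 9 higher to 10 lower of 25, with SLC7A11 (3.18), TXNRD1 (1.12) and SRXN1 (1.00) at one end and AKR1C3 (-2.66), PRDX1 (-1.25) and FTL (-0.55) at the other.

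Mitochondrial messages were lower by an amount that depended on the control. All 13 mRNAs encoded by mitochondrial DNA fell, with a median of -0.37, and of -1.52 against set 1. Their share of all counts was 3.37% ± 0.0997 at 3 nM 8 h, 4.44% ± 0.053 in untreated set 2 and 8.84% ± 0.615 in set 1 (SD, n = 3 each). Nuclear genes of the respiratory chain fell in 17 of 30 cases and rose in 2, NDUFS1 (0.18) and CYC1 (0.17), the second not called against set 1 (0.07, adjusted p = 0.18). NDUFA2 fell most (-1.08). Autophagy and lysosome genes were 12 higher and 16 lower of 28. MAP1LC3B (1.31), TFEB (1.80) and TFE3 (0.96) rose, the last 2 being transcription factors of lysosome genes, whereas the initiating kinase ULK1 (-1.20), WIPI1 (-0.85) and NPC2 (-0.82) fell. Proteasome subunits were within 0.48 of no change where called higher, 14 of 31, and 10 were lower.

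Cell cycle genes are given here by phase. Replication-dependent histones were lower in all 8 tested members of 14 listed (median -1.40). Among them HIST2H2BE (-2.39), HIST1H2BD (-2.27) and HIST1H2BC (-1.53) were at 8.76 CPM or less in every library of set 2. All 8 together summed to 50.4 to 54.5 CPM in untreated set 2 and 16.8 to 20.9 CPM at 3 nM 8 h. The other listed histones did not pass the low-count filter. Levels this low are not read here as a measure of S phase. S phase genes divided 11 higher and 14 lower of 26, with POLE2 (0.80) and CDC6 (0.50) higher and PCNA, the sliding clamp, lower, from 174, 162 and 168 CPM to 84.1, 92.0 and 87.8 CPM (-0.93). Of 28 genes of G2 and mitosis 18 were lower and 4 higher (median -0.20). Against set 1 these counts were 8 and 5 (median -0.05), and limma on log2(TPM + 1) called 10 lower. The largest falls included KIF20A at -1.11 and DLGAP5 at -0.87. KIF2C (0.21), UBE2C (0.19) and AURKB (0.17) were among the 4 higher. The last 2 were not called against set 1, and the libraries of AURKB overlapped. Among G1 cyclins and inhibitors 5 of 19 were higher and 10 lower. CDKN1C (-2.31), CDKN2C (-1.75) and CDKN2B (-1.08), inhibitors of cyclin-dependent kinases, fell, while CCND2 and CDK6 rose by 0.80 and 0.54. CDKN1A, the p53 target p21, had 171, 161 and 158 CPM untreated and 150, 160 and 161 CPM treated, which overlap (-0.06, SE 0.0464, adjusted p = 0.268). Against set 1 it was 0.52 lower. The p53 list as a whole divided 11 higher to 12 lower of 25, with TP53INP1 at -1.94.

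Clock genes divided as well, 5 of 16 higher and 6 lower. ARNTL, which encodes the positive factor BMAL1, rose by 1.56 and PER2 by 1.11, or 1.91 against set 1. BHLHE41 and PER1, both repressors, fell by 1.96 and 0.84.

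The largest changes over all genes, among those of at least 5 CPM in the higher group, named several genes outside these lists. RAB39B, a small GTPase of vesicle traffic, rose from 2.47, 2.10 and 2.58 CPM to 67.9, 67.6 and 67.2 CPM (4.81, SE 0.0781, adjusted p = 3.34e-49). MMP10, a secreted matrix protease, rose from 0.898, 0.335 and 0.412 CPM to 14.3, 15.6 and 11.9 CPM (4.60). The rest of the rising genes outside the lists were pseudogenes: CLUHP10 (5.61), CLUHP4 (5.42), CLUHP5 (5.07), ASNSP1 (4.81) and DUX4L25 (6.67). Against set 1 CLUHP4, CLUHP5 and DUX4L25 stood at 8.48, 6.49 and 4.70. Reads of such copies can be shared with their parent genes or with each other, so that their values are uncertain, and ASNSP1 carries the name of ASNS. DUX4L25 also varied most, at 6.59, 8.03 and 0.692 CPM after treatment, with 364 counts in the treated libraries and 3 in the untreated (normalised ratio 117, 95% counting interval 39.8 to 572).

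Among the genes that fell most was LBH, a transcription cofactor, from 419, 429 and 424 CPM to 17.9, 19.7 and 18.8 CPM (-4.49, SE 0.0551, adjusted p = 1.24e-54). NPAS4, an activity-dependent transcription factor, had 435 counts over the untreated libraries and 3 over the treated ones, a normalised ratio of 150 (95% counting interval 51.0 to 730). SDPR, a protein of caveolae, fell by 4.81, GAS1, a membrane protein linked to growth arrest, by 4.72 and the sugar carrier SLC2A12 by 4.50. KIAA1210 and the antisense transcript AC011738.4 fell by 4.36 and 4.58. These, with EGR2, NR4A2 and BMF above, complete the 10 largest falls.

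Between 4 h and 8 h of 3 nM, 8015 genes (44.4%) were called, 4257 higher (23.6%) and 3758 lower (20.8%). Among them 134 were at least 2-fold higher (0.743%) and 518 at least 2-fold lower (2.87%). From 8 h to 16 h 9771 genes (54.2%) were called, with 204 at least 2-fold higher (1.13%) and 1203 at least 2-fold lower (6.67%). The share of calls that were higher was 53.1% for the first step and 50.4% for the second, and limma on log2(TPM + 1) gave 65.6% and 33.5%. The 2 steps share the 8 h libraries. The 4 h and 16 h libraries were of the same depth as those at 8 h.

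Genes of amino acid synthesis and tRNA charging were still climbing at 8 h. For amino acid synthesis the median over untreated set 2 was 0.86 at 4 h, 1.39 at 8 h and 1.66 at 16 h, and 19 of 22 members were called higher at 8 h than at 4 h. Cytosolic tRNA synthetases had medians of 0.80, 1.36 and 1.61 at these times, with 19 of 20 higher at 8 h than at 4 h and 15 of 20 higher at 16 h than at 8 h. Amino acid transporters did not share this course, with medians of 1.34, 1.68 and 1.53. Of 15 transporters 6 were higher and 4 lower at 8 h than at 4 h, and 2 higher and 5 lower at 16 h than at 8 h. Ribosome biogenesis factors came close to their later level, with 0.95, 1.21 and 1.29. Ribosomal proteins were still low at 8 h and turned afterwards: 80 of 80 were called higher at 16 h than at 8 h, with a median step of 0.42.

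Inflammatory genes were past their peak. Of the 21 cytokines and chemokines 15 were lower at 8 h than at 4 h and 3 higher, and 16 were lower at 16 h than at 8 h. CXCL8 had means of 156, 637 and 1221 CPM at 1, 2 and 4 h, 405 at 8 h and 92.2 at 16 h. CCL2, a monocyte chemokine, stood at 237 CPM at 4 h, 59.2 at 8 h and 3.24 at 16 h, and the untreated mean was 47.9 CPM. Its call against untreated at 8 h (0.31) was not made with set 1 (0.22, adjusted p = 0.10). TSLP and IL1A did not follow, with 23.3 and 14.9 CPM at 16 h against 9.10 and 11.7 at 8 h. NF-kB subunits and inhibitors had medians over untreated of 0.74 at 4 h and 0.73 at 8 h, and 12 of 16 were lower at 16 h than at 8 h.

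Immediate early genes changed direction over the course. Their median over untreated set 2 was 0.56 at 1 h and 0.60 at 2 h, with 24 and 22 of 26 called higher (12.7% and 22.5% of all genes), then -0.48 at 4 h, -1.25 at 8 h and -1.68 at 16 h. From 4 h to 8 h 24 of 26 fell and none rose by edgeR's call. EGR1 had means of 3307, 1760 and 520 CPM at 1, 2 and 4 h, and 131 CPM at 16 h. Genes of G2 and mitosis recovered in part, as 19 of 28 were higher at 8 h than at 4 h and none lower.

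**Figure D4:**
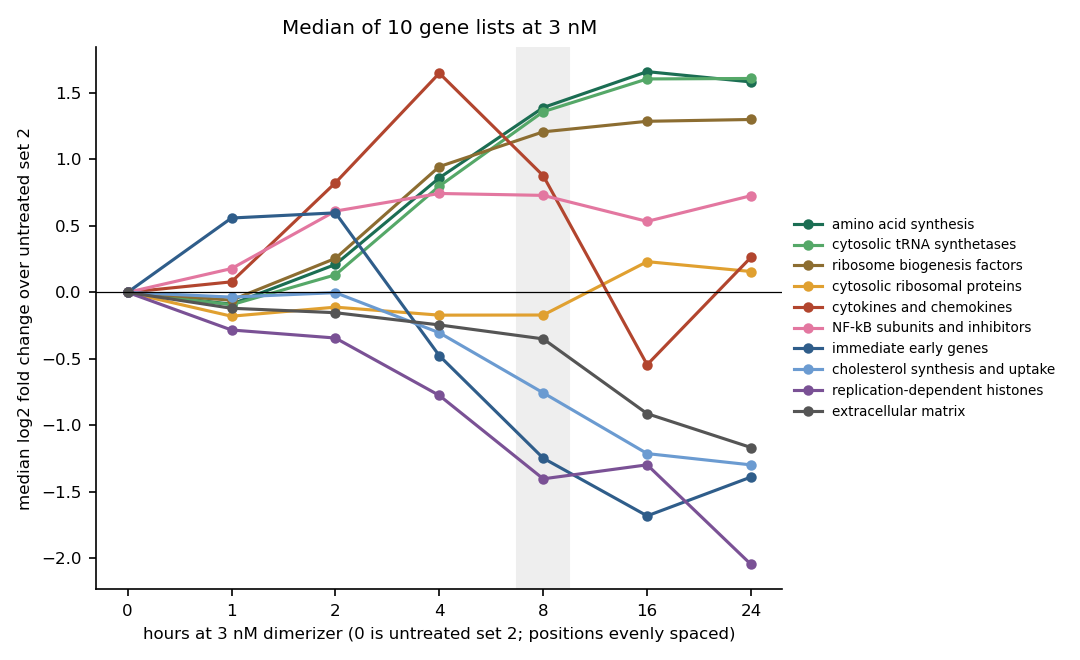
Median log2 fold change over untreated set 2 (vertical axis) of 10 gene lists at each time of 3 nM dimerizer (horizontal axis, evenly spaced), with 8 h shaded; all points share untreated set 2. Amino acid synthesis and tRNA synthetases rise through 8 h, cytokines fall from 1.65 at 4 h to 0.88 at 8 h, and immediate early genes cross from above 0 at 2 h to -1.25 at 8 h.

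The largest single steps from 4 h to 8 h, among genes of at least 5 CPM, were rises in RP11-514P8.8, ANK2 (2.43), ESM1 (2.27), FAM155A (2.25) and OLAH (2.24). ANK2, an adaptor of the membrane skeleton, went from a mean of 2.66 CPM at 4 h to 14.0 at 8 h and 37.6 at 16 h. OLAH, a thioesterase of fatty acid synthesis, went from 1.68 to 7.82 and then 61.0 CPM. RP11-514P8.8 had 1.91, 17.5 and 16.6 CPM at 8 h and 0.299, 5.07 and 4.94 CPM untreated, so its groups overlapped. The largest falls were in RMRP, RNA5S1, EPPK1 (-3.58), XIRP1 (-3.39) and RNA5-8S5. EPPK1, a linker of keratin filaments, was left at a mean of 1.67 CPM at 8 h. RMRP, RNA5S1 and RNA5-8S5 are short non-coding RNAs, and their replicates spread widely (0.682, 2.69 and 0 CPM for RMRP at 8 h). RNA5S1 and RNA5-8S5 also have many copies.

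From 8 h to 16 h the largest falls were IGFBP5 (-5.08), the non-coding MIAT (-4.65), CXCL14 (-4.43), ICAM1 (-4.33) and CCL2 (-4.19). IGFBP5, a binding protein of insulin-like growth factors, stood at a mean of 254 CPM untreated, 127 at 4 h, 58.7 at 8 h and 1.75 at 16 h. ICAM1, an adhesion molecule driven by NF-kB, was at 0.937 CPM untreated, 8.66 at 8 h and 0.422 at 16 h. The largest rises were SPRR2D (4.35), VEPH1 (3.28), OLAH (2.96), MMP3 (2.35) and CSTA (2.12). SPRR2D, a protein of the cornified envelope, had 0 counts in the untreated libraries and 19 at 8 h, which is at least 6.13-fold higher when the untreated group is set to 3 counts in all, before reaching 5.41 CPM at 16 h.

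A smaller set of genes had an extreme at 8 h itself. There were 738 genes (4.09%) called higher at 8 h than at both 4 h and 16 h, 46 of them (0.255%) by at least 1.5-fold on each side. Called lower than at both times were 592 genes (3.28%), 49 of them (0.272%) by at least 1.5-fold. TRAF1 was of the first kind, at 215 CPM at 4 h, 390 at 8 h and 84.3 at 16 h. ITGA2, an integrin for collagen, had 62.9, 172 and 63.7 CPM and NAV2, a microtubule protein, 77.4, 163 and 66.8 CPM at these times. AFF3 and PDZD2 also peaked, and PDZD2 at 8 h overlapped the untreated level (20.8 against 18.8 CPM) because it had dipped to 10.6 CPM at 4 h. CD82, GBP3 and MMP10 completed the 8 with the largest steps.

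Among genes lowest at 8 h, MYOM1, a muscle scaffold, had 7.10 CPM at 4 h, 3.38 at 8 h and 6.68 at 16 h. SOCS3, the feedback inhibitor of cytokine receptors, fell from 30.8 to 10.5 CPM and returned to 18.1. PPARG, a regulator of fat storage, had 26.4, 15.5 and 27.2 CPM. ADAMTS1, GRHL1 and SLC22A23 showed the same order. RP5-991G20.1, an antisense transcript, rested on 1 library at 4 h, since without replicate 1 of that group the step from 4 h to 8 h was 0.123 instead of -1.15.

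**Figure D5:**
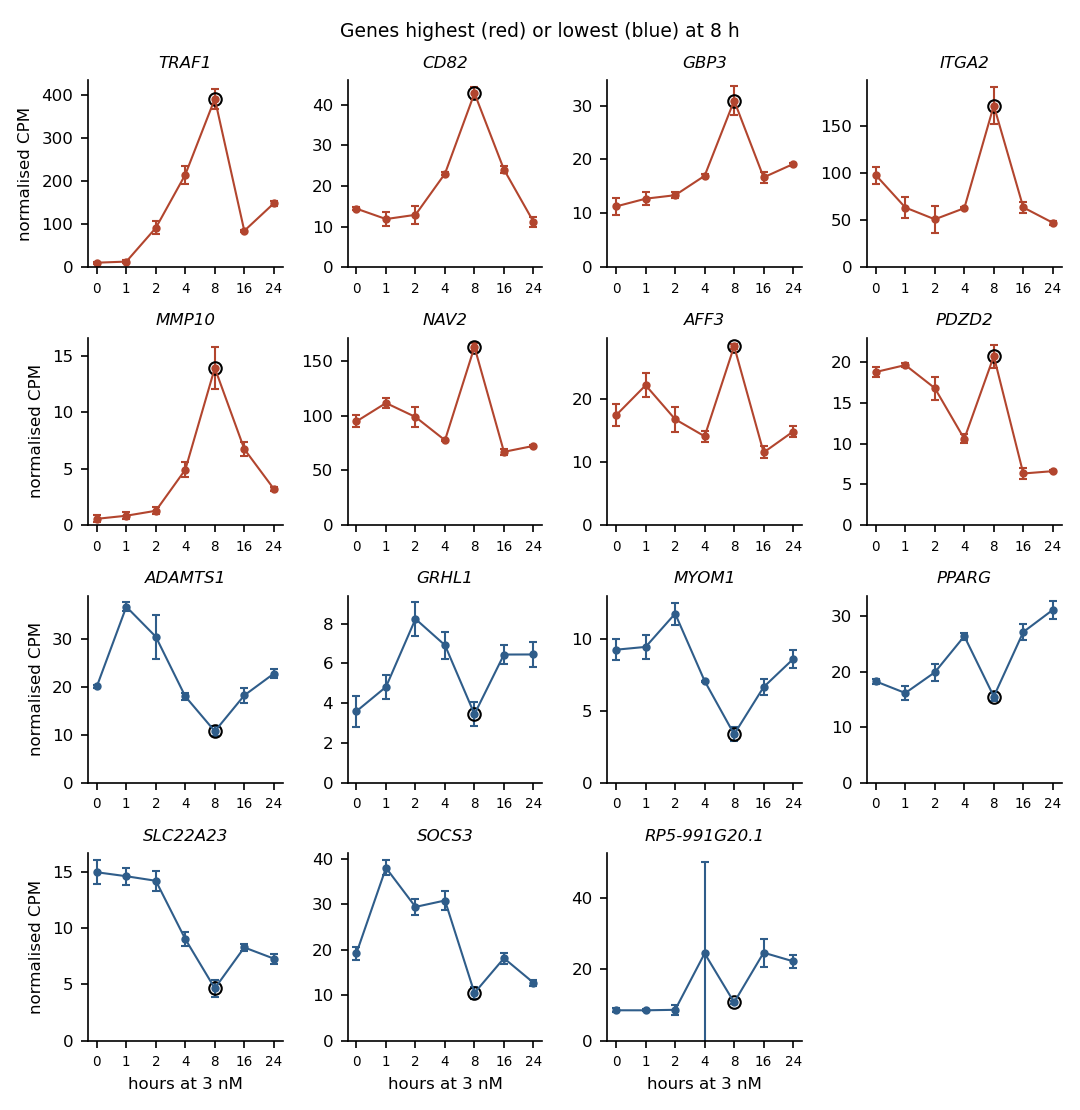
Mean and SD of normalised CPM (n = 3) of 15 genes at 0 h (untreated set 2) and each time of 3 nM dimerizer, evenly spaced, with 8 h circled; the panels in red are highest and those in blue lowest at 8 h relative to 4 h and 16 h. TRAF1 reaches 390 CPM at 8 h between 215 and 84.3 CPM, and the lower bar of RP5-991G20.1 at 4 h is cut at 0.

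Against the middle dose at the same time, 6890 genes (38.2%) differed, 4220 higher (23.4%) and 2670 lower (14.8%) at 3 nM than at 0.2 nM. At least 2-fold differences numbered 267 higher (1.48%) and 236 lower (1.31%). The share of calls that were higher was 61.2%, and 78.8% with no filter beyond 1 count. The libraries at 0.2 nM were the shallower ones, so dose and sequencing set cannot be told apart in this contrast. The difference was therefore also taken after subtracting from each dose the untreated set of like depth, where 4586 genes (25.4%) were called, 15.2% higher and 10.2% lower. The labels tie neither untreated set to a dose.

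Amino acid synthesis genes differed little between the doses. Among them 8 of 22 were called higher and 4 lower at 3 nM, with a median of 0.01, and 7 and 1 after subtraction of the like controls, with a median of 0.14. Of 20 cytosolic tRNA synthetases 12 were higher and 1 lower at 3 nM, with a median of 0.14. After subtraction 6 were higher and 0 lower, with a median of 0.11. ASNS had a mean of 318 CPM at 3 nM and 324 at 0.2 nM, a difference of -0.03 (SE 0.0472, adjusted p = 0.69). ATF4 had 704 and 685 CPM, a difference of 0.04 (SE 0.0329, adjusted p = 0.36), but one of 0.37 after subtraction, which was called (adjusted p = 1.7e-08). TRIB3 was higher at 3 nM by 0.34 and XBP1 by 0.31. Cytokines and chemokines were higher at 3 nM in 20 of 21 cases, with a median of 1.01 and of 1.00 after subtraction of the like controls, where 15 were called. CXCL8 had 405 CPM at 3 nM and 41.0 CPM at 0.2 nM (3.30), a level below both untreated sets. NF-kB genes were higher in 14 of 16 cases (median 0.61), with NFKB1 at 356 and 140 CPM, and ribosome biogenesis factors in 32 of 39 (median 0.31). After subtraction these counts were 13 (median 0.65) and 24 (median 0.23). Immediate early genes were higher in 21 of 26, with a median of 0.68, and in 24 of 26 after subtraction, with a median of 1.30. With untreated set 1 as control their fall was not particular to 3 nM. Against that set all 26 were called lower at 8 h of 0.2 nM (median -2.21) and of 0.01 nM (-2.70). The medians over all genes tested were 0.04 and 0.02. At 3 nM 22 were lower against set 1 (-1.82), where 31.2% of all genes were. The 26 genes summed to 12052 to 12574 CPM in set 1 and to 8138 to 8321 CPM in set 2. The part of this higher control level in the falls was not tested.

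GADD45A, PPP1R15A and ATF3 were ISR genes with higher levels at 3 nM than at 0.2 nM. ATF3 was nevertheless below both untreated sets at each of these doses. GADD45A, a stress sensor, had 598 CPM at 3 nM and 252 at 0.2 nM (1.25), PPP1R15A 196 and 104 CPM (0.92), and ATF3 186 and 79.6 CPM (1.23). After subtraction the differences were 1.51, 1.45 and 2.22. Several of the 5 largest differences in each direction did not hold after subtraction of the like controls. KCNA1, a potassium channel, was 2.73 higher at 3 nM but 0.36 after subtraction (adjusted p = 0.56), since it stood at 33.8 CPM in untreated set 2 and 6.48 in set 1. ICAM1 kept a difference of 1.97 (adjusted p = 2.5e-02) and CXCL8 one of 3.52. On the lower side were H3F3AP4, a processed pseudogene, and AC005943.2, CHURC1-FNTB, CTC-435M10.3 and RP11-529K1.3, which span other genes and whose replicates spread widely. None of the last 4 was called after subtraction, and RP11-529K1.3 changed sign (-2.29 to 0.57). DUX4L25 and RNA5S1, the other 2 on the higher side, were not called after it.

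The members of the 2-fold groups can be described by their loci. Genes at least 2-fold higher spanned a median of 26.8 kb with 7 exons and those at least 2-fold lower 20.4 kb with 5 exons, against 26.6 kb and 6 exons over all genes tested with an annotation. Long non-coding RNAs made up 15.7% of the higher, 18.5% of the lower and 14.4% of all genes, and pseudogenes 7.95%, 5.90% and 5.20%. The medians of the untreated level were 8.98, 4.89 and 17.5 CPM, so the 2-fold groups were drawn from less abundant genes.

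Promoter windows in RefSeq's table run from 250 bases before to 50 after the start, and 12259 of the 18040 tested genes had at least 1. TGATGNAA was found on either strand in 5.66% of the 1255 windows of genes at least 2-fold higher, in 2.76% of the 1705 windows of genes at least 2-fold lower, in 2.17% of the 17698 windows of all tested genes and in 3.62% of the whole table. Of the 363 tested genes with this match 68 (18.7%) were at least 2-fold higher, against 6.67% of the 11896 without it. At least 2-fold lower were 45 (12.4%) of those with the match and 9.12% of those without it. The match was present in 7 of 21 windows of cytosolic tRNA synthetases (AARS, CARS, GARS, IARS, MARS, NARS and TARS), in 5 of 23 of amino acid transporters and in 6 of 26 of amino acid synthesis genes. A match to the kappa-B motif, searched on both strands with free bases in its middle, was in 3.27% of the windows of genes at least 2-fold higher, 0.762% of those at least 2-fold lower and 2.01% of all tested. It was found in 9 of 23 windows of the NF-kB list, including those of NFKB1 and NFKB2, which rose, and of NFKBIA, NFKBIZ and TNFAIP3, which fell.

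The libraries carried the mesenchymal genes of the labelled line. In untreated set 2 VIM had a mean of 3257 CPM, COL1A1 1142, SPARC 1189 and the bone regulator RUNX2 57.8 CPM, while COL1A2, SP7, IBSP and NT5E did not pass the low-count filter. The summed level of the 12 tested osteoblast and mesenchymal markers was 5828 to 5875 CPM in untreated set 2, 3531 to 3716 CPM at 3 nM 8 h and 7406 to 7802 CPM in set 1. Of these 8 were called lower and 2 higher, ALPL (1.36) and CDH2 (0.52). Epithelial markers summed to 995 to 1038 CPM untreated and 1142 to 1231 CPM treated, mostly from KRT18 and KRT8. In that list 3 of 12 were higher, among them ESRP1, a splicing factor of epithelia, which rose from 0.0533 to 2.73 CPM (5.44, or 4.75 against set 1), and 7 lower, among them CLDN4 (-2.56), while 4 were higher and 4 lower against set 1. Endothelial markers summed to 11.8 to 12.8 CPM in both groups. Of 12 blood and immune markers 3 were tested, with PTPRC, CD3E, CD14 and HBB not among them, and their sum rose from 1.20 to 2.13 CPM untreated to 4.73 to 5.78 CPM, mostly from ITGAM. The part of these marker levels in the other results was not tested.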

How the data were processed

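The estimated counts and the TPM values per gene were made by the authors and deposited as tables of the whole series. The submitters' processing notes name Salmon 0.9.1, FastQC 0.11.5 and the build GRCh38, without saying what each was used for. No annotation release is named in the sources used here. Among deposited estimated counts above 0, 54.2% lay within 1e-06 of a whole number, and each was rounded before testing. Genes were kept by edgeR's filterByExpr (18040 of 57665) and scaled by TMM. The quasi-likelihood test of edgeR 4.0.16 (R 4.3.3) was fitted to all 60 libraries with 20 group means and 40 residual degrees of freedom, and p-values were adjusted by Benjamini-Hochberg within each contrast. An SE is the log2 fold change divided by the root of the F statistic. The procedure was tested on simulated data. Coordinates are GENCODE 29 gene models on GRCh38, and promoter windows are from RefSeq's table on GRCh38.p14.

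Samples were grouped by title. The members and the gene lists were chosen with earlier results of these data known. Genes named were 19 fixed ISR and signalling genes, the 3 called members of each list with the largest change in each direction and any 3 or fewer going against the rest, and the 10 largest called changes in each direction at 5 CPM or more. To these were added the 8 genes highest and the 8 lowest at 8 h, the 5 largest each way in the other contrasts, and fixed genes with a promoter match. Other list members named were chosen after their values were seen. Some genes that this rule selects are not reported here. Alternatives were DESeq2 1.42.0, its scaling, limma 3.58.1 on log2(TPM + 1) and log2(TPM + 0.1), other filters, other controls, a replicate block and leaving out each library. Counting intervals and floors cover counting error only. At the lowest depth of the deeper libraries 3 counts are 0.145 CPM, against 0.536 CPM in the shallower ones.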

Additional observations from a re-analysis of the deposited data

Results flagged for a closer look

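EGR4, an immediate early gene, moved in opposite directions at neighbouring times of 3 nM dimerizer. Its log2 fold change over untreated set 2 was 1.09 at 4 h and -1.93 at 8 h, with means of 14.8 CPM untreated, 31.5 at 4 h and 3.86 at 8 h. The difference between the times was tested directly by edgeR (adjusted p = 7.12e-32), and the 2 effects share their untreated libraries.

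HLF, a bZIP factor of the clock output, was above untreated at 8 h and below it at 24 h. Its log2 fold changes were 1.20 and -1.38, a difference of -2.58 (adjusted p = 7.15e-08 by edgeR). The levels were low, at means of 0.788 CPM untreated, 1.83 at 8 h and 0.300 at 24 h, and these effects also share their control.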

How the results depend on the processing

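Across 365 results for named genes and 6228 values under the alternatives, 6038 kept their direction and side of the threshold, 170 were no longer called, 13 became called and 7 reversed. With untreated set 1 as control the reversed log2 fold changes were -0.20 for COL4A1, 0.0048 for IARS2, -0.0017 for RACK1, -0.0080 for RPL10A and -0.034 for RPL8. REL and KLF2, which the naming rule did not select, lie outside this tally. Both also changed sign against set 1, with larger values than these, as given above. RP11-529K1.3 went to 0.57 between doses after subtraction of the like controls, and RP5-991G20.1 to 0.123 from 4 h to 8 h without replicate 1 of the 4 h group, within a range of -1.56 to 0.123 over the libraries left out. The causes were not tested. Of the counts within gene lists 77 moved by over 1.5 times under an alternative.

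With at least 5 CPM in 3 libraries fewer genes were tested: 1129 were at least 2-fold lower than untreated, 63 at least 2-fold higher and 327 lower at 8 h than at 4 h, 87 and 748 at 16 h than at 8 h, and 114 and 88 at 3 nM than at 0.2 nM, with 30 highest and 30 lowest at 8 h by 1.5-fold. With no filter beyond 1 count, 236 were at least 2-fold higher at 8 h than at 4 h, 332 at 16 h than at 8 h, and 1509 were called lower at 3 nM than at 0.2 nM. After subtraction of the like controls the dose contrast called 4586, with 2745 higher, 146 at least 2-fold higher and 599 at least 2-fold lower.

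With limma on log2(TPM + 1), 870 were at least 2-fold lower than untreated. From 4 h to 8 h it called 4064, 2665 higher and 1399 lower, 49 and 156 by 2-fold. From 8 h to 16 h it called 5246, 1758 higher, 48 and 595 by 2-fold. Between doses it called 3652, 1899 higher and 1753 lower, 105 and 61 by 2-fold. At 8 h 379 were highest and 71 lowest, 7 of the latter by 1.5-fold. With log2(TPM + 0.1), it called 4004 from 4 h to 8 h, 2587 higher and 1417 lower, 86 and 304 by 2-fold. It called 5315 from 8 h to 16 h, 1712 higher and 83 by 2-fold, and 3590 between doses, 1846 higher and 1744 lower. Here 358 were highest and 76 lowest at 8 h, 29 and 12 by 1.5-fold. The cause was not tested.

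Leaving out 1 library at a time, calls against untreated numbered 12227 to 12403, with 6201 to 6330 higher, 6003 to 6110 lower, 1371 to 1399 at least 2-fold higher and 1840 to 1916 lower. For 8 h against 4 h these were 7188 to 7975, 3651 to 4191, 3418 to 3786, 115 to 144 and 521 to 553. For 16 h against 8 h they were 8964 to 9842, 4461 to 5027, 4449 to 4856, 204 to 233 and 1176 to 1232. Between doses they were 5739 to 6499, 3398 to 4102, 2341 to 2579, 241 to 256 and 206 to 273. Genes highest at 8 h were 559 to 669 and lowest 492 to 593, or 39 to 45 and 44 to 58 by 1.5-fold.

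A replicate block on all 60 libraries called 6503 higher and 6291 lower than untreated. Deviations of same-numbered libraries of the 2 groups correlated at -0.192, -0.058 and -0.059. Each deviation was taken from the mean of only 3 libraries, so these correlations cannot show whether same-numbered libraries shared a culture or day.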
